A study of Mus musculus with 2 samples.

Results

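The 10 genes described here encode mitochondrial chaperones and proteases: Hspd1, Hspe1, Hspa9, Dnaja3, Trap1, Lonp1, Clpp, Clpx, Yme1l1 and Afg3l2. They were taken by symbol from a list of names, not by their values, and are 10 of the 32285 genes in the count matrices. All 10 had at least 20 unique molecular identifiers (UMIs, each the tag of 1 captured RNA molecule) over both libraries. The retinas came from male C57BL/6J mice aged 7 months, 1 library from WT mice and 1 from mice that carry the 13997G>A change in the mtDNA gene ND6 (ND6 P25L, an allele linked to Leber's hereditary optic neuropathy). The mutant line was made by fusion with female embryonic stem cells and kept by mating mutant females with WT males, and the mutation is present throughout the body. Whole retinas were digested with proteases to single cells, and how many mice were pooled for a library is not stated in the sources used here. With 1 library per genotype there was no test: every interval given is an exact 95% interval for counting error only, and genotype cannot be told apart from any other difference between the libraries.

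Mitochondria import nearly all of their proteins unfolded, and chaperones in the matrix fold them. Hspa9 (mtHsp70) pulls precursors in and holds them with J-proteins such as Dnaja3, and Hspd1 (Hsp60) with its lid Hspe1 (Hsp10) forms a chamber in which they fold. Proteases remove what does not fold: Lonp1 and the Clpx-Clpp complex in the matrix, and Afg3l2 and Yme1l1 in the inner membrane, where the mutated complex I subunit also lies. When unfolded proteins build up in the matrix, mammalian cells are known to raise transcripts of several of these genes, which is why their levels serve as a readout of the mitochondrial unfolded protein response.

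Hspd1 and Hspe1 lie head to head on chromosome 1 (mm10, chr1:55077835-55088243 on the minus strand and chr1:55088132-55091307 on the plus strand), and their annotated 5′ ends overlap by 112 bases. The region shown for them lies inside the annotated span of Hspd1. It is shown because Hspd1 and Hspe1 had the lowest mutant-to-WT ratios of the members in all cells. The upstream region of Clpp (chr17:56990305-56996188, plus strand) is shown because Clpp was the only member that was higher. Sequences are from RefSeq on GRCm38.p6, 150 bases before a start site, read 5′ to 3′ on the strand of the gene. The genomic spans are chr1:55087998-55088147, chr1:55087933-55088082 and chr17:56990114-56990263. Capitals mark a run of 18 bases in which 4 triplets, TTC and GAA in turn, stand 2 free bases apart, the letters of a heat shock element.
Hspe1: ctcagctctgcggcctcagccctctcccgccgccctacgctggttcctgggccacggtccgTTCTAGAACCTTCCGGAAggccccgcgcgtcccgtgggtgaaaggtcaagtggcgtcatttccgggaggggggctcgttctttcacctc
Hspd1: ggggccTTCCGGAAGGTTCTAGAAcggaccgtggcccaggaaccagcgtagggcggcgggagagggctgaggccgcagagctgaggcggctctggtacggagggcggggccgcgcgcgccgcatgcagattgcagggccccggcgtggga
Clpp: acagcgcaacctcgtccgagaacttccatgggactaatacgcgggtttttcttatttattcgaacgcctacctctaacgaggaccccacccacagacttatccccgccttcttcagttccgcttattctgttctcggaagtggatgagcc

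The capitals of Hspe1 and Hspd1 are the same 18 base pairs (chr1:55088059-55088076) read on the 2 strands, 72 to 89 bases before the start of Hspe1 and 127 to 144 bases before a start of Hspd1. They lie inside the annotated span of Hspd1, and the window of its other start site did not hold the run. Windows from 250 bases before to 50 after a start site were searched on both strands, 32851 windows in all, of which 9 belong to 8 members. Hspa9 and Afg3l2 were not matched. The run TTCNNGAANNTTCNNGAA, or its reverse order GAANNTTCNNGAANNTTC, was found in 8 of all windows (0.0244%), those of Hspd1 and Hspe1 among them. Its overlapping shorter parts were more common: 3 alternating triplets (TTCNNGAANNTTC or GAANNTTCNNGAA) stood in 0.603% of windows, TTCNNGAA in 8.52% and GAANNTTC in 7.86%. Among the members, TTCNNGAA also occurred in Clpp, after the RefSeq start site and before the annotated start of the gene given above. TTGCATCA, the letters of a C/EBP-ATF composite element, stood in 0.895% of windows and in none of the 9. The cAMP response element TGACGTCA stood in 1.79%, and among the members in Trap1. The shorter letters TGACG stood in 20.8% of windows, with Hspd1, Hspe1, Lonp1, Dnaja3, Trap1 and Yme1l1 among them, and CCAAT in 37.4%, with Hspd1, Clpx, Dnaja3 and Yme1l1. The run of 4 triplets was looked for after the windows had been read and with the values known, and a match of letters is a description, not a bound site.

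The libraries hold 12529 WT and 18395 ND6 P25L cells with 54524401 and 62949610 UMIs, at a median of 1878 and 1416 UMIs per cell. The limit of 20% on UMIs from mtDNA-encoded genes removed 45.9% of otherwise accepted barcodes in the WT library and 17.3% in the mutant library. Genes that tissue digestion is known to induce differed between the libraries: all 7 early response genes listed (Fos, Fosb, Jun, Junb, Egr1, Atf3 and Ier2) were lower in the mutant library, by a median log2 ratio of -1.91. Levels are given as CPM, UMIs per 1000000 UMIs of the same cells, and free RNA from other cells was not subtracted from them. In total, 59 cell barcodes occurred in both libraries. Rod-like cells, named like the other classes from marker genes, made up 84.3% of WT and 77.6% of mutant cells, and no cluster was named for retinal ganglion cells, the neurons lost in the disease, at the clustering used. With no limit on the mtDNA share, a cluster of 172 WT and 482 mutant cells and another of 114 and 52 were named for them. Member values of those clusters are not given here. Of the 2 amacrine-like clusters, 1 also had all 7 ganglion cell markers raised, and of the 3 RPE-like clusters (retinal pigment epithelium) 1 holds 95 WT and 5 mutant cells. Another RPE-like cluster, of 68 WT and 226 mutant cells, also had all 8 rod markers raised against the mean of the named clusters. A macrophage- or microglia-like cluster had 6 of them raised and a bipolar-like cluster 5. Values of these classes, RPE-like above all, may thus hold rod RNA.

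Hspe1 and Hspd1 were lower in the mutant library and Clpp was higher, while the other 7 members lay closer to WT. Over all cells, Hspe1 was at 185 CPM in WT and 133 CPM in the mutant, a log2 ratio of -0.48 (interval -0.52 to -0.44; 10103 and 8348 UMIs). Hspd1 was at 147 CPM in WT and 109 CPM in the mutant, a log2 ratio of -0.42 (-0.47 to -0.38). Both intervals lie far from 0, and both proteins are parts of the same folding chamber. Clpp, the proteolytic subunit of the Clpx-Clpp complex, was at 74.8 CPM in WT and 94.9 CPM in the mutant, a log2 ratio of 0.34 (0.29 to 0.40). A sum over all cells mixes the level per cell with the shares of the cell types, which are taken apart further on.

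**Figure D1:**
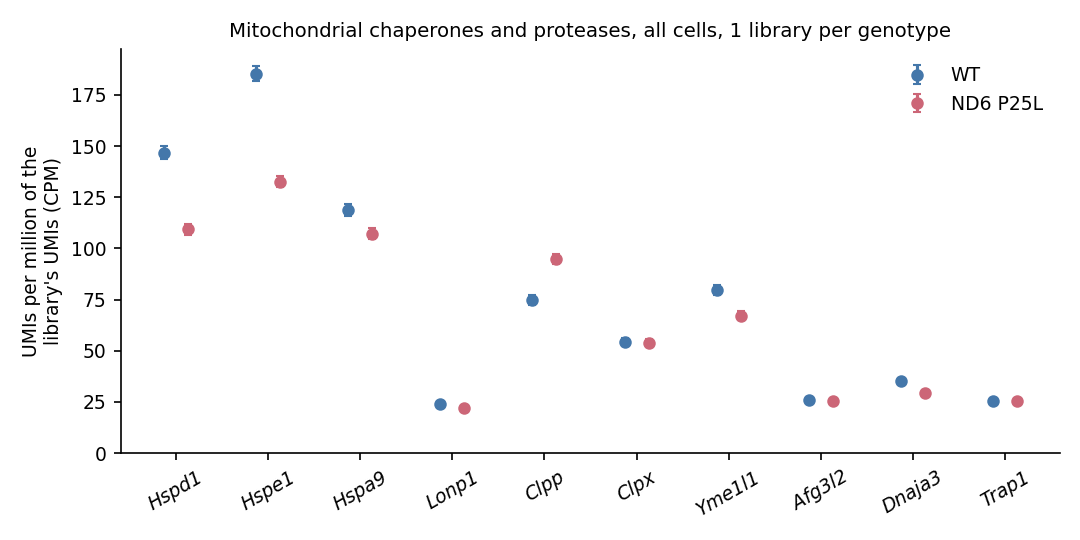
Level of each member in all cells, in UMIs per 1000000 UMIs of the library (vertical axis, from 0), for the WT library (blue) and the ND6 P25L library (red); bars are exact 95% Poisson intervals for counting error. Hspe1 and Hspd1 sit lower in the mutant (133 against 185 CPM, and 109 against 147 CPM), Clpp sits higher (94.9 against 74.8 CPM), and the symbols of Clpx, Afg3l2 and Trap1 nearly coincide.

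Of the remaining chaperones, Dnaja3, a J-protein partner of mtHsp70, was at 35.2 CPM in WT and 29.3 CPM in the mutant (log2 ratio -0.27, interval -0.36 to -0.17). Hspa9, the mtHsp70 itself, was at 119 and 107 CPM (-0.15, -0.20 to -0.10). Trap1, a mitochondrial Hsp90, was at 25.5 CPM in WT and 25.4 CPM in the mutant, and its interval held 0 (-0.11 to 0.10). Among the proteases, Yme1l1, which faces the intermembrane space, was at 79.5 CPM in WT and 67.2 CPM in the mutant (-0.24, -0.30 to -0.18). Lonp1, the soluble ATP-dependent protease of the matrix, was at 23.8 and 21.8 CPM (-0.13, -0.24 to -0.02). Afg3l2, the inner membrane protease that faces the matrix, had 26.0 CPM in WT and 25.5 CPM in the mutant. Clpx, the unfoldase that feeds Clpp, had 54.4 CPM and 53.8 CPM. The intervals of Afg3l2 (-0.13 to 0.08) and Clpx (-0.09 to 0.06) held 0, so the unfoldase and the proteolytic subunit of 1 protease had different ratios. Yme1l1 lies at chr2:23156369-23199260, Clpx at chr9:65294260-65330658 and Lonp1 at chr17:56614297-56626887. Trap1 (chr16:4039971-4077827) overlaps Dnase1 on the other strand. Dnaja3 (chr16:4639989-4707695) overlaps Coro7 on the other strand and Vasn on its own, so reads of Dnaja3 and Vasn could be shared.

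In all, 1 of the 10 members was higher in the mutant and 9 were lower, where 56.7% of the 15888 genes with at least 20 UMIs were higher. The median log2 ratio of the members was -0.14 and that of all these genes 0.07. The interval lay below 0 for 6 members, as for 28.0% of all genes, and above 0 for 1 member, as for 37.9%. None of the 10 reached a log2 ratio of 0.5 in either direction, a size met by 21.6% of all genes on the higher and 8.78% on the lower side. The 10 genes summed to 770 CPM in WT and 667 CPM in the mutant, a log2 ratio of -0.21 (-0.23 to -0.19). Under the 8 alternative ways of selecting or scaling cells, the summed ratio stayed between -0.27 and -0.15, Hspe1 between -0.61 and -0.46, Hspd1 between -0.49 and -0.32 and Clpp between 0.28 and 0.43. Clpx, Afg3l2 and Trap1 had the other sign in 3 of the 8.

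Within the 7 cell classes the same 3 genes had these directions in the sums of UMIs. Hspe1 was lower in the mutant in all 7 classes, with log2 ratios from -0.78 in amacrine-like to -0.28 in macrophage- or microglia-like cells, but it was higher in cone-like cells thinned to 400 UMIs (0.16) and in Müller-like cells when cells were weighted equally (0.11). Its interval lay below 0 in 5 of them. The RPE-like ratio (-0.50) comes from clusters that the libraries filled unequally: without the cluster of 68 WT and 226 mutant cells Hspe1 was at -0.18, and without that of 121 and 704 cells at -1.09. In rod-like cells Hspe1 had 178 CPM in WT and 128 CPM in the mutant (-0.48, interval -0.53 to -0.42). In amacrine-like cells, the inhibitory interneurons of the inner retina, it had 332 and 193 CPM (-0.78, -1.03 to -0.54), an interval that does not overlap that of rod-like cells. These amacrine-like cells come from 2 clusters of which 1 holds 15 WT and 159 mutant cells. Without it, Hspe1 was at -0.65 in that class, and without the other, of 61 WT and 131 mutant cells, at -1.22.

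Hspd1 was likewise lower in 7 of 7 classes, from -0.65 in amacrine-like to -0.12 in macrophage- or microglia-like cells, with intervals below 0 in 5, but it was higher after thinning in macrophage- or microglia-like (0.42) and RPE-like cells (0.36), and in cone-like cells without 1 of their 2 clusters (0.02). In rod-like cells it had 142 CPM in WT and 107 CPM in the mutant (-0.41, -0.47 to -0.35). In cone-like cells it had 182 and 125 CPM (-0.54, -0.68 to -0.39). The Müller-like class has 42 WT and 89 mutant cells and the macrophage- or microglia-like class 237 and 133, and in both the intervals of Hspd1 and Hspe1 held 0. Depth differed within classes as well. Median UMIs per cell were 9250.5 in WT and 1645 in the mutant in Müller-like, 3120.5 and 1096 in RPE-like and 7602.5 and 3986.5 in amacrine-like cells. Clpp was higher in 7 of 7 classes, from 0.11 in bipolar-like to 0.75 in macrophage- or microglia-like cells, but it was lower in thinned bipolar-like, amacrine-like and Müller-like cells, in bipolar-like and Müller-like cells weighted equally, and in amacrine-like cells without the larger of their WT clusters (-0.10). Its interval lay above 0 in rod-like (75.2 and 96.6 CPM; 0.36, 0.29 to 0.43), cone-like (78.7 and 93.2 CPM; 0.24, 0.05 to 0.44) and RPE-like cells (100.6 and 127 CPM; 0.34, 0.04 to 0.64).

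**Figure D2:**
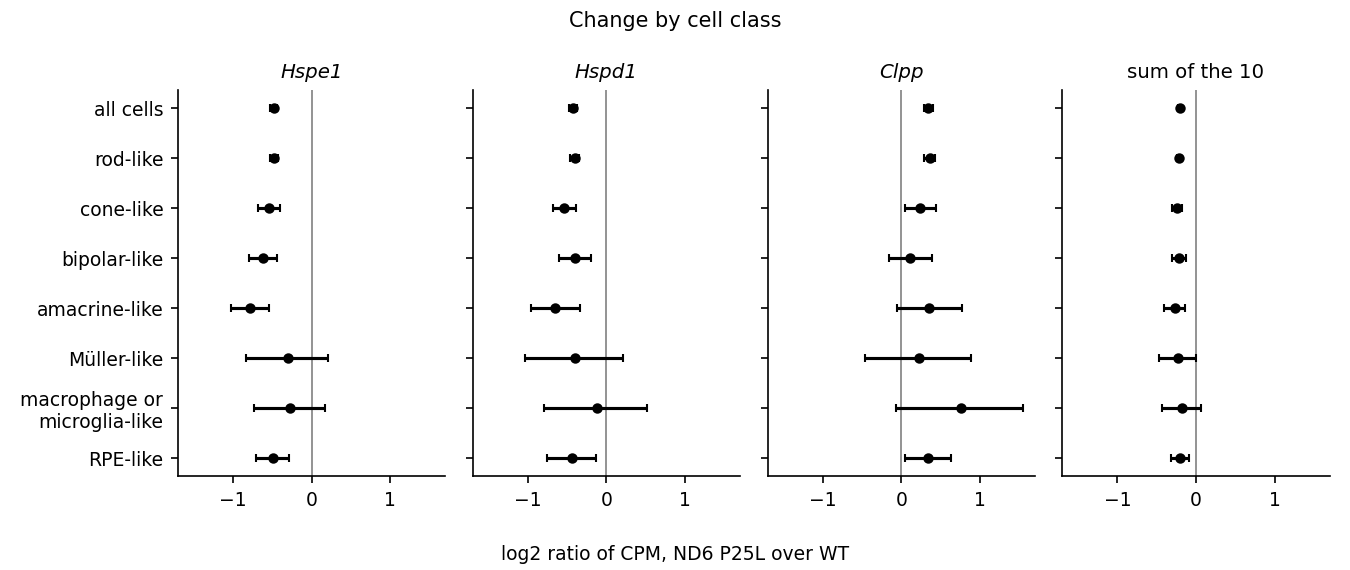
Log2 ratio of CPM, ND6 P25L over WT (horizontal axis), for Hspe1, Hspd1, Clpp and the sum of the 10 members in all cells and in 7 cell classes; points are ratios, bars exact 95% intervals for counting error, and the grey line marks no difference. In these sums Hspe1 and Hspd1 lie left of the line in each class and Clpp right of it, though thinning or equal weighting of cells turned Hspe1 or Hspd1 in 4 classes and Clpp in 3, with the widest intervals in the Müller-like and macrophage- or microglia-like cells.

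The members as a group were read against all genes of the same class. In rod-like cells, 3 of 10 members were higher, against 53.8% of all genes. The interval lay below 0 for 7 of the 10, against 29.0% of genes, and above 0 for 1, against 33.9%. Besides Hspd1 and Hspe1, the rod intervals below 0 were those of Hspa9 (117 and 102 CPM), Lonp1 (23.1 and 20.2 CPM), Yme1l1 (76.9 and 64.5 CPM), Afg3l2 (24.5 and 21.7 CPM) and Dnaja3 (36.7 and 27.8 CPM; -0.40). Of these, Afg3l2 was higher in the mutant when cells were weighted equally or thinned. The 8 rod-like clusters gave fewer such intervals. Hspa9 and Dnaja3 were lower in 8 of 8 clusters, with intervals below 0 in 3 and 4. Yme1l1 was lower in 6 (-0.19 to 0.07), with 1 interval below 0, and Lonp1 in 5 (-0.49 to 0.21) and Afg3l2 in 4 (-0.16 to 0.41), with 0. Over all rod-like cells Yme1l1 (-0.25) and Afg3l2 (-0.18) thus lie below the ratio of every cluster. Without the cluster of 1155 WT and 786 mutant cells, Yme1l1 was at -0.14, Lonp1 at -0.07 in place of -0.19 and Afg3l2 at 0.02. The rod median of the members was -0.19, and -0.10 without that cluster.

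In cone-like cells 3 of 10 members were higher, against 51.8% of genes, with a median of -0.14. In bipolar-like cells 5 of 10 were higher, against 58.4%, and in amacrine-like cells 6 of 10, against 54.3%, with medians of 0.05 and 0.07. In Müller-like cells 3 of 10 were higher, against 46.3%. In macrophage- or microglia-like cells it was 3 of the 9 members with at least 20 UMIs, against 52.2%, and in RPE-like cells 2 of 10, against 49.5%. The medians of these 3 classes were -0.33, -0.28 and -0.08. Medians near 0 did not keep their sign: after thinning the bipolar-like median was -0.18, the amacrine-like -1.02 and the RPE-like 0.25, and the cone-like one was 0.24. In the inner retinal neurons, Lonp1 (28.6 and 38.0 CPM in amacrine-like cells, 0.41, -0.32 to 1.19) and Trap1 (14.95 and 19.4 CPM in bipolar-like cells, 0.37, -0.30 to 1.09) had values above WT with intervals that held 0. The summed level was lower in all 7 classes, by log2 ratios of -0.18 to -0.27, but higher after thinning in cone-like (0.17) and RPE-like cells (0.08). It moved to -0.05 in cone-like cells without the cluster of 394 WT and 561 mutant cells, where Clpp was at 0.53 and Yme1l1 at -0.60, and to -0.12 in RPE-like cells without that of 68 and 226. In the macrophage or microglia class it was at -0.05 or -0.30 without 1 or the other of its clusters. Its interval reached past 0 only in the macrophage or microglia class (-0.43 to 0.07).

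Early response genes and cytosolic chaperones had median log2 ratios below 0 in all 7 classes, and their part in the result was not tested. The median of the early response genes with at least 20 UMIs was -1.37 in rod-like, -2.17 in cone-like, -1.13 in amacrine-like and -0.48 in RPE-like cells. Hspa8, the constitutive cytosolic Hsp70, was lower in all 7 classes, by -0.49 in Müller-like to -1.69 in macrophage- or microglia-like cells. Where these genes were not captured, Hspe1 and Hspd1 had unlike ratios, as they did in all rod-like cells of the same depth. Among rod-like cells with more than 1000 and up to 2000 UMIs, 2872 WT and 5287 mutant cells had no UMI of the 7 genes or of Hspa1a and Hspa1b, a choice made after seeing the data. In them Hspe1 was at 227 CPM in WT and 163 CPM in the mutant (-0.48, -0.61 to -0.35), the same ratio as in all rod-like cells of that depth. Hspd1 was at 125 and 115 CPM (-0.12, -0.28 to 0.05), against -0.24 in all of them, whose interval (-0.37 to -0.10) holds that value. Clpp was at 84.3 and 111 CPM (0.40, 0.21 to 0.59). In the cells with at least 1 such UMI, Hspd1 was at 130 and 84.4 CPM (-0.62, -0.89 to -0.36) and Hspe1 at 213 and 145 CPM (-0.56, -0.76 to -0.36), whereas Clpp was at 88.8 and 93.4 CPM (0.07, -0.20 to 0.35). Having no UMI of 9 genes at this depth does not show that a cell lacked their RNA: Hspa8 was at 1083 CPM in WT and 498 CPM in the mutant in the first set as well (-1.12).

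Hspe1 was lower and Clpp higher at each depth of the rod-like cells. In 4 bins, of more than 400, 1000, 2000 and 5000 UMIs per cell, Hspe1 was at -0.64, -0.48, -0.49 and -0.56, with every interval below 0. Hspd1 was at -0.13 (interval -0.47 to 0.21), -0.24, -0.37 and -0.48. The intervals of its first and last bins overlap. Clpp was at 0.45, 0.31, 0.37 and 0.33, with every interval above 0. Across the 8 rod-like clusters, Hspe1 was lower in 8, from -0.72 to -0.41, and Clpp higher in 8. Hspd1 was lower in 7, and in the most numerous cluster, of 2758 WT and 3147 mutant cells, it had 107 CPM in WT and 116 CPM in the mutant (0.13, -0.07 to 0.33). In barcodes too shallow to be called cells, of more than 100 and up to 400 UMIs, the interval lay above 0 for 9 of the 10 members per UMI of all genes, against 81.4% of genes, and for 2 of 10 per UMI of nuclear genes, against 40.1%.

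**Figure D3:**
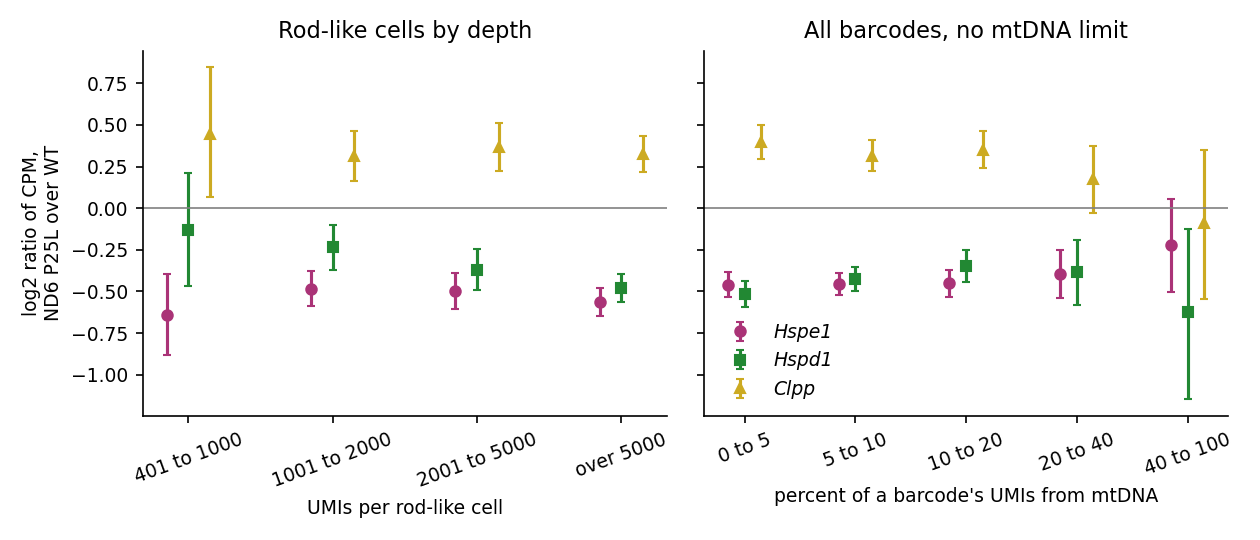
Log2 ratio of CPM, ND6 P25L over WT (vertical axis), of Hspe1 (circles), Hspd1 (squares) and Clpp (triangles) in rod-like cells binned by UMIs per cell (left) and in all barcodes with more than 400 UMIs and 200 genes binned by the percent of their UMIs from mtDNA, with no limit on it (right); bars are exact 95% intervals for counting error. Hspd1 lies nearer 0 in shallow rod-like cells (-0.13) than in deep ones (-0.48), and up to an mtDNA share of 20% the ratios of all 3 genes keep their sides of 0.

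The unequal loss of cells to the mtDNA limit was examined by binning all barcodes by their mtDNA share. With a share of up to 5%, Hspe1 was at -0.46, Hspd1 at -0.51 and Clpp at 0.40. With 10% to 20%, they were at -0.45, -0.35 and 0.35. Among the barcodes that the limit removes, those with 20% to 40% had Hspe1 at -0.40 and Hspd1 at -0.38, with intervals below 0, and Clpp at 0.17 with an interval that held 0 (-0.03 to 0.37). Above 40%, only the interval of Hspd1 (-0.62, -1.15 to -0.13) lay off 0 among the 3. The summed level of the members was itself lower in barcodes rich in mtDNA transcripts, at 801 CPM in WT in the lowest bin and 376 CPM in the highest, on a scale that counts mtDNA UMIs in the total.

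Levels also differed between cell classes within each library. The summed level was 1005 CPM in amacrine-like, 917 in bipolar-like, 827 in cone-like, 786 in RPE-like, 751 in rod-like, 730 in Müller-like and 661 in macrophage- or microglia-like cells of the WT library. In the mutant library it was 832, 792, 701, 683, 648, 621 and 583 CPM in the same order of classes. Neighbours in this order had overlapping intervals except bipolar-like and cone-like cells. In WT, bipolar-like cells (872 to 965 CPM) were clear of cone-like cells (801 to 854 CPM) and overlapped amacrine-like cells (934 to 1080 CPM). The order depends on the scaling: with median-of-ratios size factors, the amacrine-like and bipolar-like sums of the mutant library were level with all its cells (log2 differences of -0.02 and -0.00).

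Single members had orders of their own. Hspe1 was highest in amacrine-like cells, at 332 CPM in WT (interval 291 to 376), above bipolar-like cells at 263 CPM (239 to 289). RPE-like cells followed at 262 CPM, then macrophage- or microglia-like at 220, cone-like at 200, rod-like at 178 (174 to 182) and Müller-like cells at 161 CPM (134 to 193). The intervals of neighbours did not overlap between amacrine-like and bipolar-like cells and between cone-like and rod-like cells. In the mutant library the 4 highest classes, at 172 to 193 CPM, overlapped each other, so the lead of amacrine-like cells was not detectable there. Hspd1 was highest in amacrine-like (196 CPM), cone-like (182) and bipolar-like cells (181) of the WT library, whose intervals overlap, and lower in rod-like (142), RPE-like (123), Müller-like (122) and macrophage- or microglia-like cells (98.4). In the mutant it ran from 137 CPM in bipolar-like to 90.6 CPM in RPE-like cells.

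**Figure D4:**
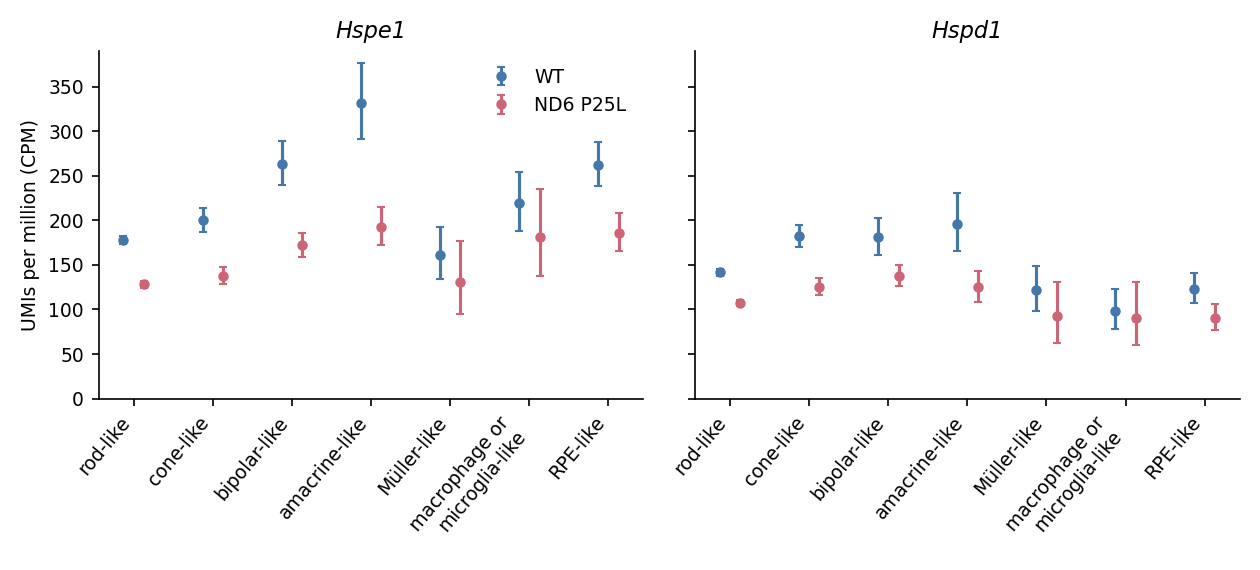
Level of Hspe1 (left) and Hspd1 (right) in 7 cell classes, in UMIs per 1000000 UMIs of the class (vertical axis, from 0), for the WT (blue) and ND6 P25L (red) libraries; bars are exact 95% Poisson intervals for counting error. Hspe1 has its highest WT level in amacrine-like cells (332 CPM) and is high in RPE-like cells (262 CPM), whereas Hspd1 is low in RPE-like cells (123 CPM).

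The transcripts of the chaperonin and its lid were not in 1 proportion across classes. In WT, there were 0.909 UMIs of Hspd1 per UMI of Hspe1 in cone-like cells (0.827 to 1.00), 0.795 in rod-like (0.766 to 0.824), 0.590 in amacrine-like (0.477 to 0.728), 0.469 in RPE-like (0.397 to 0.553) and 0.448 in macrophage- or microglia-like cells (0.339 to 0.589). The mutant had 0.912, 0.834, 0.648, 0.487 and 0.5, with intervals that overlap those of WT in each class. These are ratios of captured 3′ ends and not of proteins.

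Among the other members, Hspa9 lay between 107 and 127 CPM in all 7 WT classes, with overlapping intervals. In the mutant library Hspa9 ran from 74.5 CPM in macrophage- or microglia-like to 127 CPM in bipolar-like cells. The bipolar-like interval (116 to 138) was clear there of that of rod-like cells (102 CPM, 99.2 to 106). Clpp was at 100.6 CPM in RPE-like (86.3 to 117) and 44.2 CPM in macrophage- or microglia-like cells (30.8 to 61.4) of the WT library. Dnaja3 was at 44.9 CPM in amacrine-like and 12.6 CPM in macrophage- or microglia-like cells (6.05 to 23.2) of the WT library. Afg3l2 had its highest WT level in bipolar-like (42.5 CPM) and its lowest in RPE-like cells (14.9 CPM), and in the mutant was at 46.1 CPM in amacrine-like and 14.4 CPM in RPE-like cells. Trap1, in contrast, was highest in RPE-like cells of both libraries (34.5 CPM in WT) and at 14.95 CPM in bipolar-like cells of the WT library. The log2 difference of Trap1 between RPE-like and all other cells was 0.46 (0.06 to 0.83) in WT. In the mutant it was 0.25, with an interval that held 0 (-0.19 to 0.65). Yme1l1 was low in RPE-like cells, at 58.6 CPM in WT and 49.2 CPM in the mutant, against 76.9 and 64.5 CPM in rod-like cells.

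The genes most like Hspd1 across 13 sums of a class and a library, by Pearson's correlation of log2(CPM + 1) over 10216 genes with at least 500 UMIs, were Pithd1 (r = 0.935), Adprhl2, Cct6a, Pcmt1 and Dimt1 (0.923). Cct6a is a subunit of the cytosolic chaperonin. Of the other members, Dnaja3 came first, in place 68 (0.837), Hspe1 was in place 1587 (0.573), and Trap1 came last, in place 7987 (-0.09). Those most like Hspe1 were Bcl7b (0.896), Arpc5l, Supt4a, Mrfap1 and Sumo3 (0.885), and of the members Hspd1 came first, in place 321, and Clpx last, in place 7375. The points share libraries, depth and rod RNA, so these values are a description only.

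Lists of other genes of mitochondrial protein quality control had medians of -0.11 to 0.02, against -0.14 for the members. Of all genes, 56.7% were higher in the mutant, 21.6% lay at or above a log2 ratio of 0.5 and 8.78% at or below -0.5. With equal weight per cell or thinning, the co-factors had medians of 0.18 and 0.19 and the members -0.13 and -0.10. Among 10 co-factors and further mitochondrial chaperones, 5 were higher in the mutant and 5 lower, and the median log2 ratio was 0.01. Dnlz, which keeps mtHsp70 soluble, was at 31.9 CPM in WT and 43.4 CPM in the mutant (0.44), and the J-protein Dnajc19 at 72.3 and 80.3 CPM (0.15). Grpel2, a nucleotide exchange factor of mtHsp70, was at 35.5 and 27.0 CPM (-0.39), and Dnajc28 at 38.8 and 31.6 CPM (-0.30). Among 16 other proteases and peptidases, 8 had higher and 8 had lower levels, around a median of 0.02. Immp2l, a subunit of the inner membrane peptidase, was the 1 gene past a log2 ratio of 0.5, at 11.6 and 18.2 CPM (0.66). Spg7, picked after its values were seen because it assembles with Afg3l2, was at 91.3 and 107 CPM (0.23, 0.18 to 0.28). Of 4 protease partners 3 were lower and none passed 0.5: the prohibitin Phb stood at -0.14, Phb2 at -0.08, Maip1 at -0.17 and Stoml2 at 0.08.

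Of 24 protein import genes, 11 had higher levels and 13 lower, around a median of -0.05. Of the 24, 2 lay past -0.5, a share near the 8.78% of all genes at or below that size. Both act in the path that hands precursors to mtHsp70, and a link between their ratios was not tested. Timm44, which tethers mtHsp70 to the channel, was at 99.1 CPM in WT and 59.9 CPM in the mutant (-0.73, -0.79 to -0.67). Timm50, a receptor of the channel, was at 29.3 and 19.9 CPM (-0.56). The ratio of Timm44 lies further from 0 than that of any member.

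Genes that regulate the mitochondrial unfolded protein response were lower in 7 of 11 cases, at a median of -0.11 that turned positive with no mtDNA limit (0.03) and after thinning (0.02). Atf4, the factor translated when the integrated stress response is on, was at 495 CPM in WT and 265 CPM in the mutant (-0.90). It was lower in all 7 classes, by -0.37 in amacrine-like to -1.67 in Müller-like cells. Ddit3 (CHOP) was at 105 and 71.9 CPM (-0.55) and Cebpb at 11.2 and 3.53 CPM (-1.67). Atf5, a factor held to induce the mitochondrial chaperones, was at 4.81 and 7.42 CPM (0.63, 0.41 to 0.85). In rod-like cells it was at 3.65 and 4.64 CPM (0.35, 0.01 to 0.68), and it was above WT with an interval clear of 0 in amacrine-like cells too, from 4 and 30 UMIs. In the other 5 classes the interval held 0, with ratios below 0 in RPE-like (-0.09), Müller-like (-0.70, from 11 and 3 UMIs) and macrophage- or microglia-like cells (-0.64, from 4 and 1 UMIs). Of 9 response genes outside mitochondria that are named with Atf4, 7 had at least 20 UMIs, of which 3 were higher and 4 lower. Their median was -0.11, but 0.04 with no mtDNA limit, 0.30 with equal weight per cell and 0.10 after thinning. Those past -0.5 were Mthfd2, of mitochondrial folate metabolism, at 19.99 and 11.3 CPM (-0.82), Phgdh, of serine synthesis, at 16.1 and 10.2 CPM (-0.66), and Trib3 at 13.8 and 9.71 CPM (-0.51). Asns, of asparagine synthesis and picked after its values were seen, was at 11.2 and 15.3 CPM (0.45, 0.31 to 0.60). Fgf21 had 0 UMIs in both libraries, which by the limit of 3 counts of the total allows up to 0.055 CPM in WT and 0.0477 CPM in the mutant.

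Cytosolic and endoplasmic reticulum chaperones, listed because heat shock is known to raise Hspd1 and Hspe1 as well, were lower in 15 of 15 genes, 9 of them past -0.5, at a median of -0.76. Of all genes, 56.7% were higher and 8.78% lay at or below -0.5. This list and that of the early response genes were fixed with earlier results of these data known. Hspa1b, the inducible Hsp70, was at 68.7 CPM in WT and 19.0 CPM in the mutant (-1.85), and its copy Hspa1a at 121 and 71.2 CPM (-0.76). The 2 copies are nearly identical, so their reads may have been split. Hspa8 was at 1028 and 504 CPM (-1.03), Hsp90ab1 at 505 and 259 CPM (-0.97) and Hsph1 at 73.0 and 32.8 CPM (-1.15). The J-proteins Dnajb1 and Dnaja1 stood at -0.98 and -0.87, and Hspb1 at -0.61. The reticulum chaperone Hspa5 was at 355 and 177 CPM (-1.01), but Hsp90b1, another of the reticulum and picked after its values were seen, was at 522 and 510 CPM (-0.03). Of the 7 early response genes, Fosb had the lowest ratio (-2.62) and Jun the highest (-1.05), with Fos at 395 and 97.2 CPM. The log2 ratios of Hspe1 and Hspd1 lie between the medians of the mitochondrial lists and that of the cytosolic and reticulum chaperones, and whether the lists share a cause was not tested.

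**Figure D5:**
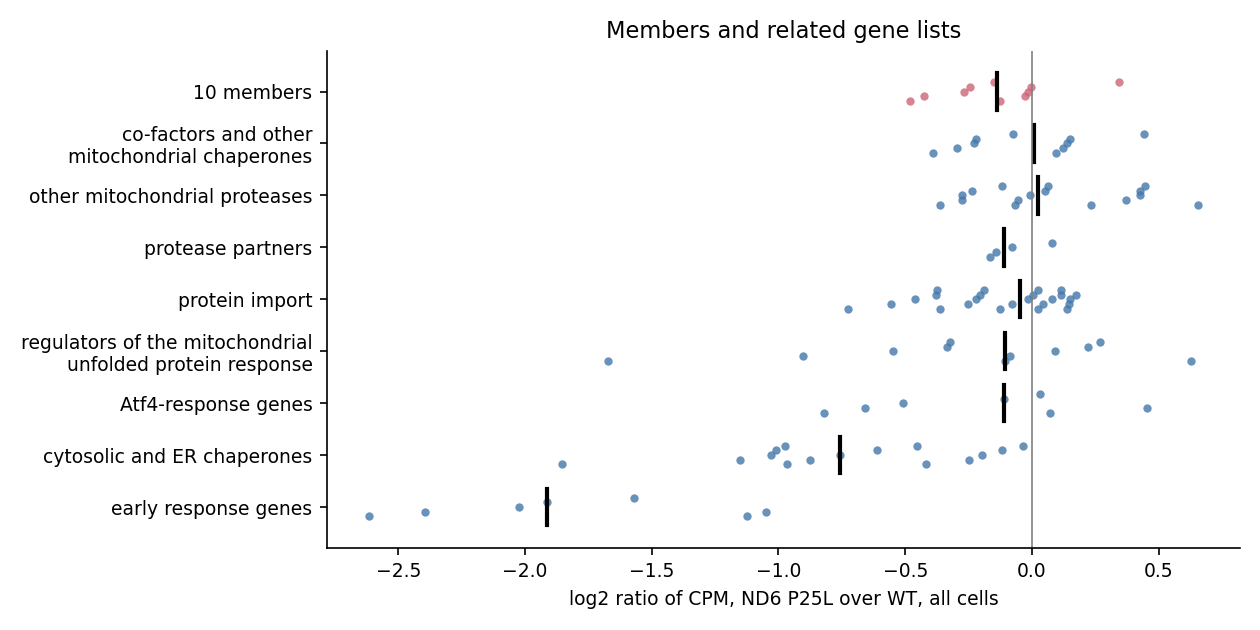
Log2 ratio of CPM, ND6 P25L over WT, in all cells (horizontal axis) for the 10 members (red) and for each gene of 8 related lists (blue) with at least 20 UMIs; black ticks are list medians, and points are spread vertically only to keep them apart. The medians of the 6 mitochondrial and stress response lists lie between -0.11 and 0.02, against -0.76 for cytosolic and reticulum chaperones and -1.91 for early response genes.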

How the data were processed

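Whole retina from 1 WT and 1 ND6 P25L library was profiled by 3′ single-cell RNA sequencing, and further libraries of the study, if any, are not analysed here. The deposited values are raw UMI counts per gene and barcode over the unfiltered barcode list, which the authors made with Cell Ranger 3.0.2 on mm10 according to the submitters' processing notes. The annotation release is not given in the sources used here. A barcode was kept as a cell if it had more than 400 UMIs and more than 200 genes and if mtDNA transcripts made up no more than 20% of its UMIs. The study's regression of confounders, dissociation stress among them, was not repeated.

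UMIs were summed per library and class and divided by the total of the same cells (CPM). Levels have exact Poisson and ratios exact conditional binomial 95% intervals, which cover counting error only. With 1 library per genotype no test was made, and the design therefore gives no p-value. A gene entered a list median with at least 20 UMIs over both libraries. The members and lists were chosen with earlier results of these data known. Named genes of other lists are those at or past a log2 ratio of 0.5 either way, or else the 2 highest and the 2 lowest with at least 100 UMIs, besides Spg7, Asns and Hsp90b1, chosen after their values were seen. Genes resembling Hspd1 and Hspe1 are the 5 with the highest correlation.

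Cells were clustered on 3000 variable genes, 30 principal components and 20 neighbours with the Leiden algorithm at resolution 1, after leaving out 116 genes, members among them. This gave 27 clusters. A cluster of at least 20 cells took the class whose markers had the highest mean log2 fold, of at least 1, with 3 or more markers raised at least 2-fold and no other class with more markers among its 10 leading genes. A cluster with no such list became rod-like where 3 or more rod markers were raised against the named clusters. An earlier form of this rule, which left 8 clusters unnamed, was replaced after the clusters and their leading genes had been seen and before member values were computed. The 2 clusters left unnamed hold 4.56% of WT and 6.79% of mutant cells. By UMIs they hold more, 7206763 of 54524401 in WT and 12619609 of 62949610 in the mutant, and these enter the values over all cells. One of them, of 453 WT and 952 mutant cells, had all 7 Müller markers raised, with Nefl, a ganglion cell marker, among its leading genes. With joint scaling, a cluster of 321 WT and 1272 mutant cells that also had Nefl leading was named Müller-like. A red blood cell class of 41 WT and 14 mutant cells gave no values, since no member reached 20 UMIs in it. Scrublet, run through scanpy, called 0 WT cells and 1 mutant cell, which means it did not work, and doublets were kept.

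Alternatives dropped the mtDNA limit, asked for more than 1000 UMIs per cell, left mtDNA UMIs out of the total, used median-of-ratios size factors, weighted cells equally, thinned cells to 400 UMIs, dropped the minimum count of a gene, removed the highest 10% of doublet scores or the shared barcodes, and clustered at resolution 2 or with joint scaling. Leaving out each cluster in turn and the rod-like cells with no early response UMI were chosen after seeing the data. Some items are not reported here. Loci are from GENCODE M21 and promoter windows from RefSeq. The counting and interval code was tested on simulated data. Python 3.11.15, numpy 2.4.6, scipy 1.17.1, pandas 2.3.3, scikit-learn 1.9.0, igraph 0.11.9, leidenalg 0.10.2, scanpy 1.11.5 and matplotlib 3.10.9 were used.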

Additional observations from a re-analysis of the deposited data

Results flagged for a closer look

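Barcodes with more than 100 and up to 400 UMIs were not among the cells compared in the report, and 2 members stood higher there in the mutant library by an interval above 0 when counted per UMI of nuclear genes. Such an interval was found for 40.1% of the 12908 nuclear genes with at least 20 UMIs, so 2 of 10 is not above the background. Afg3l2 was at a log2 ratio of 0.97 (0.48 to 1.48), with 13.1 per 1000000 nuclear UMIs in WT and 25.5 in the mutant, from 42 and 218 UMIs. Yme1l1 was at 0.52 (0.28 to 0.76), with 58.2 and 83.3. Hspe1 was at -0.78 (-0.90 to -0.66) and Hspd1 at -0.27 (-0.43 to -0.10) in the same barcodes, and Clpp at -0.00. The scale was chosen after these values were seen, because the mtDNA share of these barcodes was 46.7% in WT and 14.4% in the mutant. Per UMI of all genes, 9 of the 10 members were higher with intervals above 0, from 0.42 for Hspd1 to 1.65 for Afg3l2, and Hspe1 was at -0.10. On that scale the interval lay above 0 for 81.4% of 12921 genes. Whether the difference in mtDNA share plays a part in the values of Afg3l2 and Yme1l1 was not tested.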

How the results depend on the processing

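No paired analysis was possible because there is 1 library per genotype. The median log2 ratio of the members over all cells stayed within its error, taken as the median lower to the median upper 95% limit of its genes, under all 9 alternatives (-0.21 to -0.07). By class, 67 of 76 medians kept their sign. The bipolar-like median turned in 4 alternatives (down to -0.18), the amacrine-like and RPE-like (up to 0.25) in 2 each and the cone-like in 1. In this wide error 74 of 76 stayed, and the exceptions were cells thinned to 400 UMIs, with cone-like cells at 0.24 in place of -0.14 and amacrine-like cells at -1.02 in place of 0.07. Thinning gave no value for Müller-like cells.

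For the related lists 56 of 72 medians stayed and 64 kept their sign. The genes named with Atf4 turned in 3 alternatives (up to 0.30). With no limit on the mtDNA share the protease partners were at -0.041, the response regulators at 0.026, a turned sign, the cytosolic and reticulum chaperones at -0.69 and early response genes at -1.75. With median-of-ratios size factors protein import was at -0.12. With equal weight per cell the co-factors were at 0.18, the regulators at -0.0090, the genes named with Atf4 at 0.30, the cytosolic and reticulum chaperones at -0.64 and early response genes at -1.65. With thinning the same 5 lists were at 0.19, 0.023 (a turned sign), 0.10, -0.67 and -1.59, and the other proteases at 0.10.

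The summed level of a class over that of all cells, in log2, stayed in 95 of 126 cases. With no mtDNA limit rod-like cells were at -0.012 in WT and -0.021 in the mutant, and WT cone-like cells at 0.16. Median-of-ratios size factors turned the sign in rod-like cells of both libraries (0.051 and 0.11), in mutant bipolar-like (-0.0038) and amacrine-like cells (-0.024) and in WT macrophage- or microglia-like cells (0.10). They put WT bipolar-like and amacrine-like cells at 0.11 and 0.13, Müller-like cells at -0.36 and -0.40 and RPE-like cells at 0.45 and 0.45. With equal weight per cell, WT rod-like cells were at -0.016, cone-like at 0.16 and 0.15, bipolar-like at 0.37 and 0.32 and WT macrophage- or microglia-like cells at -0.029. With thinning, WT cone-like cells turned to -0.11 and the mutant ones were at 0.24, bipolar-like at 0.48 and 0.43, and WT rod-like, amacrine-like, macrophage- or microglia-like and RPE-like cells at -0.0042, 0.59, -0.0068 and -0.25. Without the highest doublet scores, mutant bipolar-like and amacrine-like cells were at 0.37 and 0.40, and at resolution 2 mutant amacrine-like cells at 0.40. The cause was not tested.

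Depth limits the Müller-like and macrophage- or microglia-like classes most, with 552 and 524 member UMIs in WT and 208 and 180 in the mutant.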
